A study of Mus musculus with 16 samples.

Results

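G protein-coupled receptors that answer to vasoactive and lipid signals were described in sorted isolates of mouse hepatic stellate cells (HSCs). HSCs are the vitamin A-storing cells of the liver sinusoid that turn into scar-forming cells after injury. Members were taken by gene symbol. They were the endothelin (Ednr), angiotensin (Agtr), adrenergic (Adra, Adrb), serotonin (Htr), protease-activated (F2r), adenosine (Adora), P2Y nucleotide (P2ry), sphingosine 1-phosphate (S1pr), lysophosphatidic acid (Lpar) and prostanoid (Ptger, Ptgir) receptors, the calcitonin receptor-like receptor Calcrl with its Ramp partners, the adhesion receptors (Adgr) and the numbered Gpr genes. The rule found 59 genes of the 5954 names in the deposited tables. GENCODE vM21 annotates 166 protein-coding symbols that fit the same rule, and 55 of them had a row in quiescent cells. The share of all annotated genes with a row was not computed. Counts of listed receptors, here and below, therefore do not show whether receptors were listed more or less often than other genes.

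RNA was sequenced from 16 samples of C57/Bl6 mice. The 6 quiescent (qHSC) samples came from 3 uninjured WT1CreERT2;Ai14 animals, in which tamoxifen given to the mother at E10.5 (embryonic day) switches on red fluorescent tdTomato in cells that then express the transcription factor WT1 and in their descendants. From each animal a lineage label-positive (RFP-positive) and a label-negative fraction was sorted, so the label-negative fraction holds every cell of the isolate without the label. The labels call these animals male and the study's methods call those sequenced female. The 10 activated (aHSC) samples came from 6 male animals given carbon tetrachloride (CCl4) for 8 weeks, adult at the start, and sorted as RFP-positive cells. Controls were PDGFRbCre;WT1_+_GFP;Ai14 and deleted animals PDGFRbCre;WT1_fl_GFP;Ai14. In both, 1 WT1 allele was replaced by GFP, so the controls carried only 1 intact WT1 copy, and Cre acted in any cell that had expressed Pdgfrb. The GFP-high fraction had 3 control and 3 deleted samples. The fraction labelled GFP low, called GFP-intermediate below, had 2 control samples, of which 1 was pooled from 2 animals, and 2 deleted samples. Wt1 itself had no row in any of the tables, so its loss was not checked here.

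The values were FPKM, fragments counted relative to transcript length and library total, with 1 value for each group after the replicates were combined. The named rows are those of the authors' comparison tables and not all genes, so a receptor without a row has an unknown level here and is not shown to be absent or unchanged. Neither a spread between animals nor a test can be given from 1 value per group, and the depth of the libraries is unknown. A difference is given as the log2 ratio of the group FPKM without a pseudocount, and a row at least 2-fold apart is counted as such.

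A G protein-coupled receptor crosses the membrane with a bundle of helices and, when a ligand binds, activates a heterotrimeric G protein, after which receptor kinases and arrestins stop the signal and RGS proteins switch the G protein off. In the sinusoid such receptors read peptides that set vessel tone (endothelin, angiotensin, adrenomedullin), nucleotides and proteases released on injury, and lipids such as sphingosine 1-phosphate (S1P), lysophosphatidic acid (LPA) and prostaglandin E2. Endothelin and angiotensin receptors are best known in HSCs for contraction, and the S1P and lysophosphatidylserine receptors are best known in leukocytes for migration and restraint. Adhesion receptors carry a large extracellular part that binds matrix or neighbouring cells.

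The upstream windows of 6 members are printed because they belong to neighbouring receptors with opposite ratios or to receptors near the extremes in ratio or level, and because no GENCODE exon lies in them. Each is the 250 bases before the RefSeq start (GRCm38.p6), 5′ to 3′ on the gene's strand, and capitals mark AGGAAG, the core of an ETS-factor motif, or its reverse complement. Adgrl4, Adgrg3 and Ednrb were higher in label-positive qHSCs, and Adgrg5, P2ry10 and Gpr174 were lower.
Adgrl4, chr3:151437632-151437881, plus strand: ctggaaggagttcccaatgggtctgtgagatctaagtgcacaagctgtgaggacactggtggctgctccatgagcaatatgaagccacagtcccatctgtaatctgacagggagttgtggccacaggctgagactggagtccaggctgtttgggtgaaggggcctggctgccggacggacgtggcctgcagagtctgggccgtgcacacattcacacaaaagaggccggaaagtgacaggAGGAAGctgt
Adgrg3, chr8:95017442-95017691, plus strand: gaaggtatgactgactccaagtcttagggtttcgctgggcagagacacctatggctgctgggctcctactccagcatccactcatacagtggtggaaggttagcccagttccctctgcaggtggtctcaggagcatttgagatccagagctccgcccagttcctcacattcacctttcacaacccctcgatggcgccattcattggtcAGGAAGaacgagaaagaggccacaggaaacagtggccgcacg
Ednrb, chr14:103843702-103843951, minus strand: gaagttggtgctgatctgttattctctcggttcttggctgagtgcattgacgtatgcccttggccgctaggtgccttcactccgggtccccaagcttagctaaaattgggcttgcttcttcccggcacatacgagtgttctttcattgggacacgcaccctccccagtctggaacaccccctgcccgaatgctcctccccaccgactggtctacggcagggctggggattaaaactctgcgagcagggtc
Adgrg5, chr8:94923444-94923693, plus strand: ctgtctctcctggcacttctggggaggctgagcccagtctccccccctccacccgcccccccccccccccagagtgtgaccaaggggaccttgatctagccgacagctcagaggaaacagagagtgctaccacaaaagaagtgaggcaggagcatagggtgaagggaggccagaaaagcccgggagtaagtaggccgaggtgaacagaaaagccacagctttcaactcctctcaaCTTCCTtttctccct
P2ry10, chrX:107088242-107088491, plus strand: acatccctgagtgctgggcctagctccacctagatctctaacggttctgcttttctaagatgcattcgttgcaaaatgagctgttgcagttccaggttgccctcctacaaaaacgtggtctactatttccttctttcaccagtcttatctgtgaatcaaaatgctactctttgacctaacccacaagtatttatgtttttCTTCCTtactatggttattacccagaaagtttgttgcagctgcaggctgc
Gpr174, chrX:107284096-107284345, plus strand: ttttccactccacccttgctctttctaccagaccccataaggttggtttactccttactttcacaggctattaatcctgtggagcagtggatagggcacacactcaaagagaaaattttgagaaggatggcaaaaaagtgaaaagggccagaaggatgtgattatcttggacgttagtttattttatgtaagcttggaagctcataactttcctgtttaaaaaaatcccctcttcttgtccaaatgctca
The motif began 10 bases before the start in Adgrl4, 42 in Adgrg3, 15 in Adgrg5 and 50 in P2ry10, on the reverse strand in the last pair, and these letters were not in the Ednrb and Gpr174 windows. Those of Ednrb and Gpr174 precede an internal start and lie inside the span of longer GENCODE transcripts of the same gene. RefSeq windows were at hand for 45 of the members. Searched on both strands, AGGAAG was in 37.5% of the 16 windows of members with a higher ratio, in 34.5% of the 29 with a lower ratio and in 29.2% of all 27025 windows of that length. The RUNX core TGTGGT was in 6.25%, 24.1% and 14.2%, the GATA core AGATAA in 0%, 13.8% and 10.3%, and the AP-1 core TGANTCA in 6.25%, 13.8% and 6.87%, in that order. The E-box CACGTG was in 0%, 3.45% and 6.05%, and the TATA box TATAAA in 12.5%, 6.90% and 13%. With 16 windows, 1 match is 6.25%, so these shares are coarse. Higher members had a median of 8 CpG sites per window, lower members 4 and all windows 6.

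The comparison of label-positive with label-negative qHSCs asks how the labelled part of the stellate cell isolate differs from the rest. The label was meant to mark descendants of the embryonic mesothelium, and qHSC is the study's name for both fractions. Of the 56 receptor rows, 21 (37.5%) were higher and 35 (62.5%) lower in label-positive qHSCs, where 50.4% of all 5716 rows of that table were higher. At least 2-fold differences were seen in 19 members upward (33.9%, background 37.7%) and 34 downward (60.7%, background 43.5%). The median log2 ratio was 1.34 over the higher members and -2.46 over the lower ones, beside 1.31 and -2.02 over all higher and all lower rows. A larger share of the receptor rows than of all rows was lower, which was not tested, and since only part of all genes has a row, these shares describe the listed genes and not the receptor family.

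The 2 directions differed in level as well as in number. In label-positive qHSCs the median FPKM of the higher members was 73.5, and 8 of 21 reached 100. Lower members had a median of 3.97 in label-negative qHSCs, and 1 of 35 reached 100. Differences were narrower upward, where 2 of 21 exceeded 4-fold, than downward, where 25 of 35 did and 8 exceeded 8-fold. All rows were also narrower upward, with log2 quartiles of 0.996 and 1.61, than downward, with -3.04 and -1.27. Levels and 4-fold shares over all rows were not computed, so neither contrast is shown to be particular to receptors. Summed over members, the label-negative total was 1947 FPKM and the label-positive total 3432. The higher members made up 58.4% of the first sum and 92.9% of the second.

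**Figure D1:**
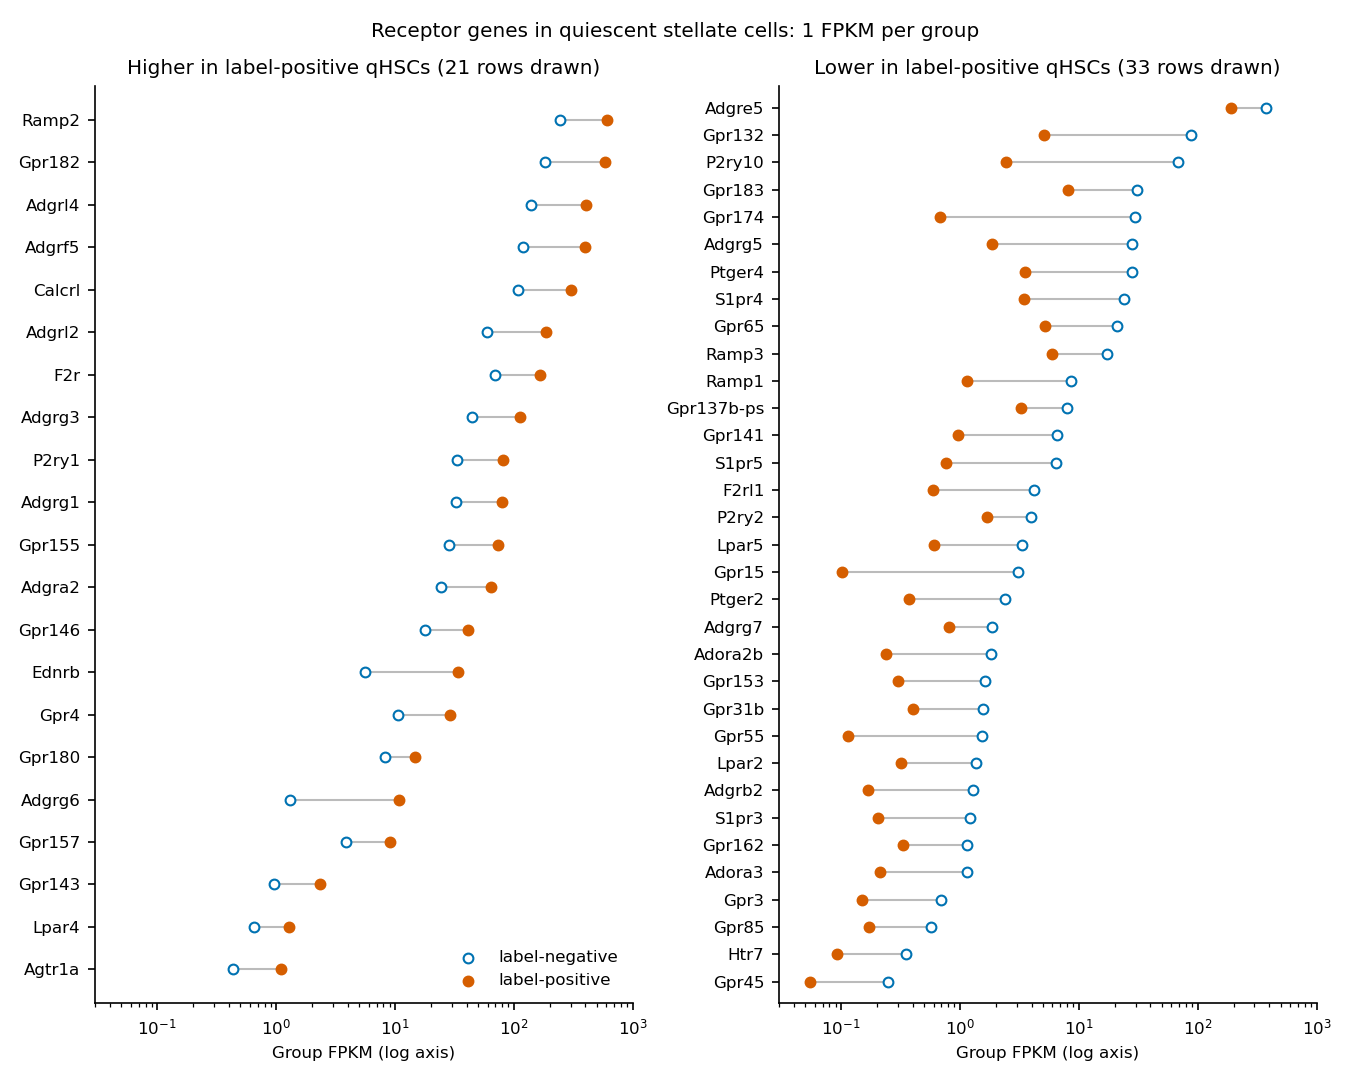
Group FPKM of 54 of the 56 receptor rows in label-negative (open) and label-positive (filled) qHSCs on a log axis, with 1 value per group and no error. The 21 higher members, from Agtr1a at 1.09 to Ramp2 at 601 in label-positive cells, move over short distances, and the 33 lower members drawn reach from Gpr45 at 0.246 to Adgre5 at 378 in label-negative cells.

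Among receptors for vasoactive peptides, Ednrb, the endothelin B receptor, had 5.58 FPKM in label-negative and 33.8 in label-positive qHSCs. At 6.06-fold (log2 2.60) it had the second largest upward ratio among the members. The endothelin A receptor Ednra had no row. Agtr1a, the angiotensin II type 1a receptor, was also higher, from 0.431 to 1.09 FPKM (log2 1.34). Agtr1b, Agtr2 and Agtrap had no row.

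Calcrl and its partners were listed in full, 4 of 4, and went both ways. Calcrl binds calcitonin gene-related peptide when paired with Ramp1 and adrenomedullin when paired with Ramp2 or Ramp3. Calcrl had 108 FPKM in label-negative and 299 in label-positive qHSCs (log2 1.47), and Ramp2 had 245 and 601 (log2 1.29), which placed Ramp2 at rank 57 of the 5716 rows in label-positive cells. Ramp3 had 17.4 and 5.97 (log2 -1.54) and Ramp1 8.66 and 1.16 (log2 -2.90). Of the summed Ramp FPKM, Ramp2 thus held 90.4% in label-negative and 98.8% in label-positive qHSCs, Ramp3 6.39% and 0.982%, and Ramp1 3.19% and 0.190%. An exon of Ramp2 overlaps one of Vps25 by 637 bases on the same strand. The longest Ramp2 transcript, of 1478 bases, matches Vps25 at 100% identity over 1103 bases. The FPKM of Ramp2 and the Ramp shares are uncertain for that reason.

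Few receptors for amines had a row. Of 14 serotonin receptor genes only Htr7 was listed, at 0.352 and 0.0932 FPKM (log2 -1.92).

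Both protease-activated receptors with a row lie side by side on chromosome 13 and went opposite ways. F2r (PAR1, the thrombin receptor; chr13:95601803-95618487, minus strand, GRCm38.p6) had 69.2 FPKM in label-negative and 167 in label-positive qHSCs (log2 1.27). F2rl1 (PAR2, cleaved by trypsin-like proteases; chr13:95511732-95525227, minus strand) had 4.21 and 0.592 (log2 -2.83). No other protein-coding gene lies between them in RefSeq.

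Purine receptors went both ways. P2ry1, the ADP receptor, was higher, with 33.1 FPKM in label-negative and 80.9 in label-positive qHSCs (log2 1.29). P2ry2, which responds to ATP and UTP, was lower, with 3.97 and 1.67 (log2 -1.25). The adenosine receptors Adora2b (1.83 and 0.240, log2 -2.93) and Adora3 (1.14 and 0.212, log2 -2.43) were lower and below 2 FPKM in both groups. Adora3 shares 670 exonic bases with Tmigd3 on the same strand, and exons of P2ry1 overlap the antisense gene Gm37035 by 992 bases.

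The listed receptors for lysophospholipids, except Lpar4, were lower in label-positive qHSCs, where 49.6% of all rows were lower. All 3 S1P receptors with a row were lower. S1pr4, a lymphocyte receptor, had 23.8 FPKM in label-negative and 3.48 in label-positive qHSCs (log2 -2.77). S1pr5, known in NK cells, had 6.41 and 0.767 (log2 -3.06), and S1pr3 had 1.22 and 0.205 (log2 -2.57). S1pr1 and S1pr2, the endothelial and widely expressed members, had no row, so the family is seen here only in part.

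Of the LPA receptors, Lpar5 (3.33 to 0.606 FPKM, log2 -2.46) and Lpar2 (1.36 to 0.317, log2 -2.11) were lower. Lpar4 was higher, from 0.652 to 1.28 FPKM (log2 0.97), just under 2-fold. The lysophosphatidylserine receptors P2ry10 and Gpr174 lie on the X chromosome beyond Lpar4 and had much larger ratios of the opposite sign. P2ry10 had 68.1 FPKM in label-negative and 2.42 in label-positive qHSCs (log2 -4.81). Gpr174 had 29.8 and 0.678 (log2 -5.46), the largest downward ratio among the members. Only P2ry10b, which matches P2ry10 at 96.6% identity over 443 bases, lies between that pair, so reads of P2ry10 and P2ry10b may not be told apart.

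Other lipid receptors were lower too. Gpr183, which binds oxysterols and guides lymphocytes, had 31.1 FPKM in label-negative and 8.09 in label-positive qHSCs (log2 -1.94). Gpr55, a lysophosphatidylinositol receptor, had 1.54 and 0.114 (log2 -3.76). Both prostaglandin E2 receptors with a row, which raise cyclic AMP, were lower. Ptger4 had 28.0 and 3.55 FPKM (log2 -2.98) and Ptger2 had 2.37 and 0.375 (log2 -2.66). Exons of Ptger4 overlap Gm15937 on the opposite strand by 872 bases.

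The related receptors Gpr4, Gpr65 and Gpr132, known for sensing protons or, for Gpr132, lysolipids and oxidised fatty acids, also did not move together. Gpr4, known in endothelium, was higher, with 10.6 FPKM in label-negative and 29.2 in label-positive qHSCs (log2 1.46). Gpr132 had 87.6 and 5.07 FPKM (log2 -4.11) and Gpr65 had 20.8 and 5.15 (log2 -2.01), so both were lower.

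Among adhesion receptors more rows were higher than lower. Of 27 annotated genes 11 were listed, 7 higher and 4 lower, where 50.4% of all rows were higher. With so few rows this balance was not tested. Adgrl4 (known in angiogenic endothelium) had 140 FPKM in label-negative and 404 in label-positive qHSCs (log2 1.52). Adgrf5 (known in endothelium and for lung surfactant control) had 118 and 395 (log2 1.74), and Adgrl2, a latrophilin, had 59.7 and 186 (log2 1.64). Adgra2, which enhances Wnt7 signals together with Reck, had 24.6 and 64.6 (log2 1.39). These 4 spanned log2 1.39 to 1.74, where all higher rows had quartiles of 0.996 and 1.61. Adgrg1 and Adgrg3, given below, had smaller ratios (log2 1.27 and 1.33). Adgrg6, a receptor for collagen IV and laminin known from myelination, stood above the other higher adhesion receptors at 8.19-fold. It went from 1.32 to 10.8 FPKM (log2 3.03), the largest upward ratio of all members. Its exons overlap those of Gm46212 on the opposite strand by 441 bases. Adgrl2 and Adgrl4 are adjacent protein-coding genes on chromosome 3, and both were higher.

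Neighbouring genes on chromosome 8 differed in direction. Adgrg5 (chr8:94923694-94943280) had 28.1 FPKM in label-negative and 1.86 in label-positive qHSCs (log2 -3.92). Adgrg1 (chr8:94974751-95014217, a receptor for collagen III) had 32.7 and 78.9 (log2 1.27), and Adgrg3 (chr8:95017692-95045250) had 44.3 and 111 (log2 1.33). All lie on the plus strand, and the windows printed above for Adgrg5 and Adgrg3 both held the ETS core. Adgre5 (CD97), a leukocyte receptor for CD55, was the most abundant member in label-negative qHSCs at 378 FPKM. With 189 in label-positive cells it was the only lower member under 2-fold, by a margin in the third decimal. The remaining pair, Adgrb2 (1.29 to 0.169, log2 -2.93) and Adgrg7 (1.86 to 0.813, log2 -1.19), stayed below 2 FPKM.

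Numbered receptors outside these groups went both ways over a wide range of levels. Gpr182, an atypical chemokine receptor of sinusoidal endothelium, had 184 FPKM in label-negative and 583 in label-positive qHSCs (log2 1.66), rank 59 in the latter. Gpr155, a lysosomal cholesterol sensor, had 28.6 and 73.5 (log2 1.36), and Gpr146, known for its part in hepatic lipoprotein output, had 17.8 and 41.3 (log2 1.21). Gpr157 (3.89 to 9.07, log2 1.22) and Gpr180 (8.19 to 14.8, log2 0.85) were higher at lower levels. Gpr180 and Lpar4 were the higher members under 2-fold.

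Downward, Gpr15, a homing receptor of T cells, had 3.11 FPKM in label-negative and 0.102 in label-positive qHSCs (log2 -4.93). Gpr141, an orphan receptor, had 6.56 and 0.970 (log2 -2.76), and the copy Gpr137b-ps of a lysosomal membrane protein had 7.97 and 3.25 (log2 -1.30). All 4 members under 1 FPKM in both groups (Gpr3, Gpr45, Gpr85 and Htr7) were lower. The other lower receptors, Gpr153, Gpr31b and Gpr162, had log2 ratios between -2.44 and -1.81 and no more than 1.64 FPKM. Gpr31b matches Gpr31a at 98.5% identity over 960 bases, so its reads may not be told apart from those of its copies. Gpr143 was the last higher member, from 0.967 to 2.33 FPKM (log2 1.27).

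The ligands and enzymes that feed these receptors were listed in part. For the lists below, the background is 50.4% of all rows higher in label-positive qHSCs, with a median log2 ratio of 0.64. No list was tested against it. No row lay between log2 -0.552 and 0.548, so a median over both directions mainly follows which direction has more rows. All higher rows alone had a median of 1.31. Of 24 genes for vasoactive ligands and their enzymes, 10 had a row, 7 higher and 3 lower in label-positive qHSCs (median log2 1.19). Edn1, the endothelin 1 gene, had 1.57 FPKM in label-negative and 3.98 in label-positive qHSCs (log2 1.34). The converting enzyme Ece1 had 118 and 267 (log2 1.18), and Adm, the adrenomedullin gene, had 11.2 and 30.3 (log2 1.44). Edn1, Ece1 and Ednrb, and Adm, Calcrl and Ramp2, were thus all higher, while Ramp3, the other adrenomedullin partner, was lower (log2 -1.54). Apart from Ednrb, the ratios of these higher genes lay between the quartiles of all higher rows, 0.996 and 1.61. Nt5e, which makes adenosine from AMP, was lower with 7.60 and 0.914 (log2 -3.05), as were Calca (1.06 and 0.282, log2 -1.91), which encodes calcitonin gene-related peptide, and Tph1.

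For lipid mediators, 14 of 26 genes had a row, 8 higher and 6 lower (median log2 1.11). Plpp3, a lipid phosphatase, had 310 FPKM in label-negative and 924 in label-positive qHSCs (log2 1.58), Plpp1 had 357 and 788 (log2 1.14), and Hpgd, which inactivates prostaglandins, had 175 and 475 (log2 1.44). The S1P exporter Spns2 had 19.8 and 53.0 (log2 1.42), and the prostaglandin carrier Slco2a1 had 42.1 and 106 (log2 1.34). The cyclooxygenases differed in direction, Ptgs1 at 81.8 and 183 (log2 1.16) and Ptgs2 at 24.5 and 6.48 (log2 -1.92). The leukotriene genes Alox5ap (290 and 59.7, log2 -2.28) and Alox5 (7.68 and 1.88, log2 -2.03) and the prostaglandin E synthase Ptges (1.69 and 0.380, log2 -2.16) were lower. So were Sgpl1, the S1P lyase, at 31.4 and 19.7 (log2 -0.67), and Hpgds at 2.92 and 1.18 (log2 -1.31).

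Downstream, 13 of 27 G protein subunit genes had a row, 10 higher and 3 lower (median log2 1.03). Gng11 had 68.2 FPKM in label-negative and 194 in label-positive qHSCs (log2 1.51), and Gna14, of the Gq class, had 2.0 and 6.36 (log2 1.67). The lower ones were Gna15 (11.1 and 2.95, log2 -1.91), Gng2 (43.3 and 9.24, log2 -2.23) and Gng10. RGS genes showed the reverse balance, with 2 higher and 8 lower of 10 listed among 21 (median log2 -2.25). Rgs1, known in lymphocytes, had 202 and 42.9 (log2 -2.23), Rgs2 had 277 and 49.0 (log2 -2.50) and Rgs14 had 27.2 and 1.85 (log2 -3.88). Rgs5, a pericyte and stellate cell gene, was higher with 0.750 and 3.29 (log2 2.13). Of 8 kinase and arrestin genes, 3 had a row, Arrb1 higher (47.3 and 106, log2 1.16), Grk6 (59.4 and 16.4, log2 -1.85) and Adrbk2 lower.

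**Figure D2:**
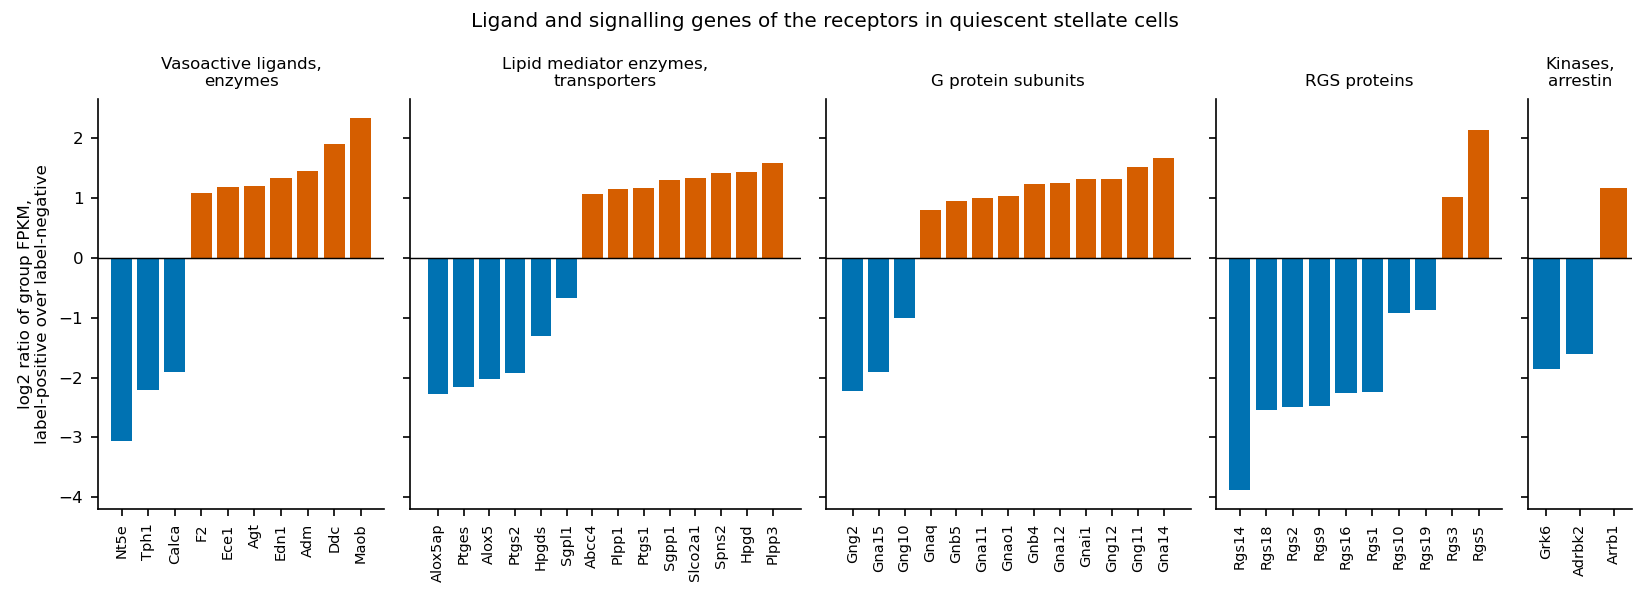
Log2 ratios of group FPKM, label-positive over label-negative qHSCs, for each listed gene of the ligand, lipid mediator, G protein, RGS and kinase or arrestin lists, with 1 bar per gene from 0 and no error. In the G protein panel 10 of 13 bars point up, and in the RGS panel 8 of 10 point down, where 50.4% of all rows were higher.

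Markers of other cell types were read as measured beside these receptors. All 17 lymphocyte markers (T, NK and B cells) were listed and lower in label-positive qHSCs, with log2 ratios from -5.92 to -3.49 (median -4.78) and a summed level that went from 1935 FPKM without the label to 90.3 with it. The ratios of 7 receptor rows fell in that range, among them Gpr174, Gpr15, P2ry10, Gpr132, Adgrg5 and Gpr55. All lower rows had a median of -2.02 with quartiles of -3.04 and -1.27. The shares of all rows in the lymphocyte, neutrophil and macrophage ranges were not computed, and no link of receptors to these cells was tested. All 8 neutrophil markers with a row, of 10, were lower (median -2.32, sum 2210 and 437). Their range, log2 -6.25 to -1.99, held 25 receptor rows and the whole lymphocyte range. All 14 liver sinusoidal endothelial markers were listed and higher, with log2 ratios from 1.28 to 1.86 (median 1.45) and a sum of 3949 and 10715. The ratios of 12 receptor rows fell in that range, among them Adgrf5, Gpr182, Adgrl2, Adgrl4, Calcrl, Gpr4 and Ramp2. All higher rows had a median of 1.31 with quartiles of 0.996 and 1.61, so many higher rows of any kind fall there. All 10 hepatocyte markers were higher (median 2.59, sum 194 and 1238), and of 11 macrophage markers listed of 13, 8 were higher and 3 lower (median 1.26, sum 1630 and 1030, or 347 and 741 over the 10 rows without Lyz2). The macrophage range, log2 -2.15 to 2.75, held 32 receptor rows. The 1 platelet marker of 6 with a row was lower.

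Of 12 quiescent stellate markers 5 had a row. Dcn, a matrix proteoglycan, had 109 FPKM in label-negative and 49.0 in label-positive qHSCs, Pdgfrb had 0.905 and 0.370, and Ngfr had 0.488 and 0.0344, while Rgs5 and Colec11 (0.221 and 0.882) were higher. Lrat, Des, Reln, Hand2, Lhx2, Ecm1 and Hhip had no row. The 5 listed stellate markers summed to 111 FPKM in label-negative and 53.6 in label-positive qHSCs, beside 3949 and 10715 for the endothelial markers. The endothelial list was complete and the stellate markers without a row have unknown levels, so these sums do not show how much stellate RNA was present. As markers of several other cell types were measured in both fractions, receptor values cannot be assigned to stellate cells alone. All 4 myofibroblast markers listed, of 8, were lower (sum 26.0 and 8.69). None of the markers with a row was at 0 in either group. The part of these markers in the receptor differences was not tested, and in a sorted bulk sample fewer cells of a type and less RNA per cell cannot be told apart.

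**Figure D3:**
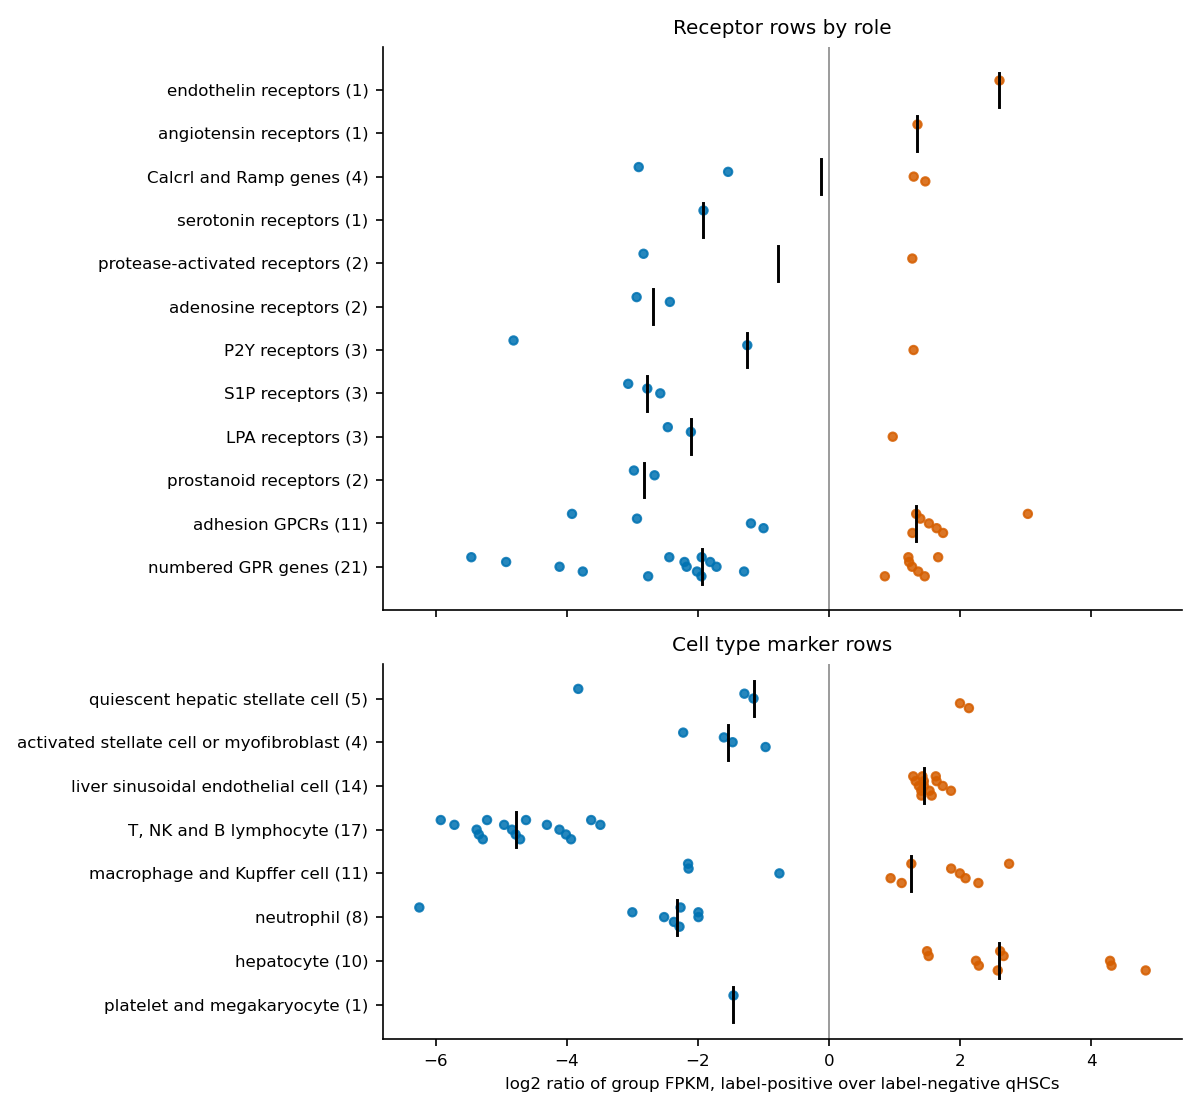
Log2 ratios of group FPKM, label-positive over label-negative qHSCs, for 54 receptor rows by role (top) and for cell type marker rows (bottom), with 1 point per row, the number of rows in parentheses and the median as a black line. The band of the 14 endothelial markers, 1.28 to 1.86, holds most higher receptors and also the median of all higher rows, 1.31. That of the 17 lymphocyte markers, -5.92 to -3.49, holds the lowest receptors and lies within that of the neutrophil markers, -6.25 to -1.99.

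The comparison of deleted with control aHSCs asks what loss of WT1 does in the fibrotic liver. In GFP-high cells no receptor was among the 123 named rows, nor was any gene of the 5 ligand and signalling lists. In GFP-intermediate cells 7 of the 419 named rows were receptors, 2 higher and 5 lower after WT1 deletion. That is 71.4% lower, against a background of 62.8%, and every named row of that table was at least 2-fold apart. The median log2 ratio of the lower members was -1.61, that of Gpr137b. The median over all lower rows had the same value (-1.6083) and may be that same row, so the match says nothing about receptors as a group. No vasoactive peptide, S1P, LPA, prostanoid or adhesion receptor was among these named rows. A further 108 loci in GFP-high and 149 in GFP-intermediate cells carry no gene name and were not searched for receptors.

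Among the higher receptors, the orphan Gpr153 had 5.87 FPKM in control and 16.8 in deleted GFP-intermediate aHSCs (log2 1.51).

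Among the lower ones, Gpr65, the proton sensor known in leukocytes, had 43.7 FPKM in control and 15.8 in deleted cells (log2 -1.47). P2ry6, the UDP receptor known in macrophages, had 37.0 and 14.3 (log2 -1.38). Gpr157 had 6.61 and 1.83 (log2 -1.85). Gpr137b, a lysosomal membrane protein, had 54.3 and 17.8 (log2 -1.61), and its copy Gpr137b-ps had 8.24 and 2.35 (log2 -1.81). The transcripts of the last pair match at 99.4% identity over 1301 bases, so their reads may be split between them and they are not independent rows.

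**Figure D4:**
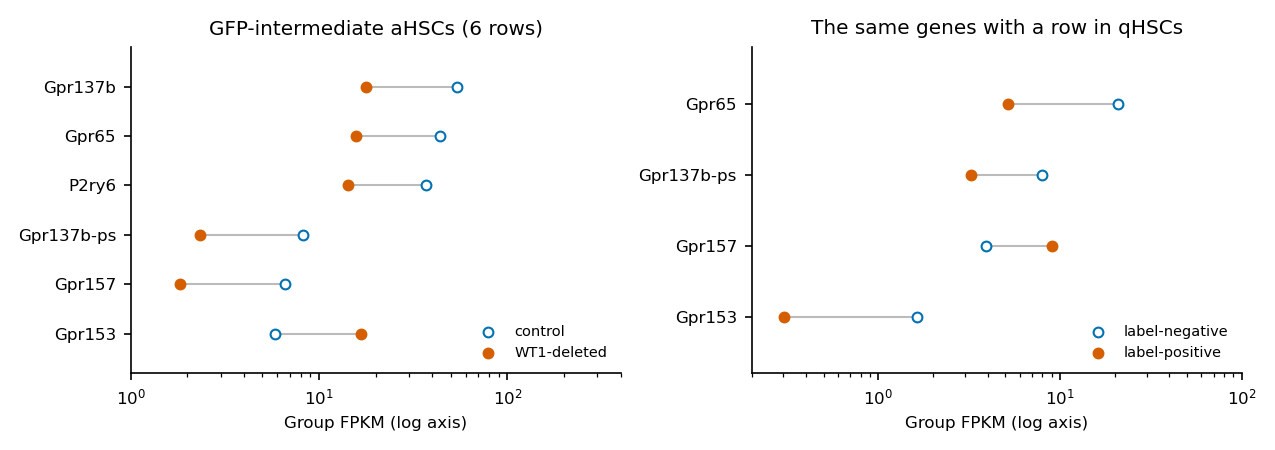
Left, group FPKM of 6 of the 7 receptor rows in control (open) and WT1-deleted (filled) GFP-intermediate aHSCs. Right, the 4 receptors that also had a row in label-negative (open) and label-positive (filled) qHSCs. Both axes are log axes with 1 value per group, no error and separate ranges, and Gpr157 and Gpr153 change sides between the panels.

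Macrophage markers with a row were lower too. Of 13 genes, 9 were listed in 8 rows of the GFP-intermediate table (C1qb and C1qc share a row), and each row was lower in deleted cells, with log2 ratios from -2.36 to -1.42 (median -1.95) and a summed FPKM of 3312 in control and 788 in deleted cells. The ratios of 4 receptor rows fell in that range, those of Gpr157, Gpr65, Gpr137b and its copy Gpr137b-ps. That of P2ry6 (log2 -1.38) did not. All lower rows had a median of -1.61 with quartiles of -2.02 and -1.38, so many lower rows of any kind fall there. All 5 neutrophil markers listed were lower (sum 729 and 219), as were both endothelial markers and the 1 lymphocyte marker with a row. The 2 stellate markers listed, Rgs5 (1.41 and 8.20) and Colec11 (2.92 and 10.7), and the myofibroblast pair Lox and Pdgfra (sum 47.0 and 106) were higher. Of 2 platelet markers listed, 1 was higher and 1 lower, and no hepatocyte marker had a row. None of these was at 0, and their part in the receptor differences was not tested.

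Within the signalling lists, 4 genes had a row in GFP-intermediate aHSCs. Enpp2, which encodes the LPA-making enzyme autotaxin, had 3.78 FPKM in control and 9.34 in deleted cells (log2 1.31). The prostaglandin D synthase Hpgds had 34.0 and 5.88 (log2 -2.53). Rgs5 was higher (log2 2.54), and Rgs1 was lower with 434 and 95.1 (log2 -2.19).

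The 4 receptors shared by the quiescent and GFP-intermediate tables rest on different animals and on tables normalised separately. Gpr65 and Gpr137b-ps were lower in both comparisons, in label-positive qHSCs (log2 -2.01 and -1.30) and after WT1 deletion (log2 -1.47 and -1.81). Gpr157 was higher in label-positive qHSCs (log2 1.22) and lower after deletion (log2 -1.85). Gpr153 was lower in label-positive qHSCs (log2 -2.44) and higher after deletion (log2 1.51).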

How the data were processed

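Hepatic stellate cells were isolated by density centrifugation and sorted, and their RNA was sequenced on an Illumina HiSeq. Per the study's methods, reads were mapped with bowtie 2 and differential expression was determined with Cuffdiff2, keeping genes whose adjusted p-value passed 0.05. The submitters' processing notes name TopHat2 2.0.3, Cufflinks 2.0.1, DESeq2 and the builds mm9 and mm10 without their roles, and the annotation is not given in the sources used here. FPKM values were deposited by the authors as 1 number per listed gene and group, with replicates combined before deposit, in 3 tables normalised separately. Their comparison tables, which hold fold changes, p-values and q-values, were used only for gene names (5714, 123 and 419, all shared with the FPKM tables), and no column of per-sample values was left unused. A ratio of FPKM is not corrected for the number of cells or for other cell types in a sort.

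The members, lists and markers were chosen with earlier results of these data known. Rows were matched to the symbol rule, roles were assigned by symbol, and log2 ratios were computed without a pseudocount (Python 3.11.15, pandas 2.3.3), after the counting steps had been checked on simulated tables. Differences were described and not tested, since 1 value per group leaves no spread. Named were every member in a deletion table, every member with at least 5 FPKM in the higher quiescent group, the 5 largest and 5 smallest ratios, and neighbouring members, except some that are counted but not reported here. Members outside that rule were added after their values were seen. All 59 symbols matched GENCODE vM21 and RefSeq (GRCm38.p6). Upstream windows came from RefSeq. The 20 bases after each start were sought near the start of a GENCODE transcript of the gene. They were found for 33 of 45 windows and not for the rest. Near-identical copies were those with at least 95% identity over 300 bases by blastn 2.17.0, and exons of 19 members overlap an exon of another gene. The overlap given is the largest between a single exon of each gene, so the total can be larger. Whether counting used strand is not given in the sources used here, so overlapping exons leave those FPKM uncertain. Alternatives were pseudocounts of 1 and 0.1, a minimum FPKM of 1, limits of 1.5-fold and 4-fold, centring on the median of all rows, single-gene rows only and each symbol counted once.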

Additional observations from a re-analysis of the deposited data

How the results depend on the processing

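No paired analysis was possible because the files used here hold 1 FPKM per group and no value per animal, and no replicate could be left out for the same reason. The directions, 21 higher and 35 lower in qHSCs and 2 higher and 5 lower in GFP-intermediate aHSCs, could be changed only by the filter on low values and by centring, and stayed within 1.5 times their count under both, while the other settings leave signs as they are. Of 91 recomputed values 72 stayed close and 19 moved. Many of the 72 could not have changed, so this tally is no measure of how stable the results are. No member row named several genes, so the single-gene and once-per-symbol settings altered nothing, and GFP-high cells had no member. A pseudocount of 1 left 22 qHSC receptors at least 2-fold lower and gave medians of 1.31 (higher) and -1.29 (lower), and a pseudocount of 0.1 gave 1.33 and -2.21. In GFP-intermediate aHSCs the medians were 1.26 and -1.43 with 1, and 1.35 and -1.60 with 0.1. A minimum FPKM of 1 gave a lower median of -2.66 in qHSCs. A 4-fold limit left 2 higher receptors in qHSCs and 0 higher and 0 lower in GFP-intermediate aHSCs, which follows from the limit itself. Centring on the median of all rows (0.64 in qHSCs) left 5 receptors at least 2-fold higher, with medians of 0.70 and -3.10, and in GFP-intermediate aHSCs 0 at least 2-fold lower, with medians of 2.69 and -0.28. As the tables hold only part of all genes, that median is no measure of a general shift. Depth is unknown, and members below 1 FPKM rest on the fewest reads.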
